A study of Mus musculus with 8 samples.

Results

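The collagen genes are described here in mouse hearts 4 days after doxorubicin, or DOX, a chemotherapy drug of the anthracycline class with known toxicity to heart muscle. They were taken as every probe set (a group of short probes for 1 transcript) whose only gene symbol has the form Col, number, a, number. This gave 82 probe sets for 42 genes among 45037 probe sets on the array. Of these, 45 probe sets covering 29 genes counted as expressed, meaning that their signal reached the median of the array on at least 2 of the 8 arrays. The other 37 probe sets did not, and 13 genes had no expressed probe set: Col4a3, Col6a4, Col6a5, Col8a2, Col9a1, Col9a2, Col11a1, Col11a2, Col13a1, Col17a1, Col19a1, Col23a1 and Col24a1. Of the 45, 6 reached the median on saline arrays only, so that their passing already depended on saline being high, and 0 on DOX arrays only.

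RNA from hearts of male mice aged 6 to 8 weeks was hybridised to 8 Affymetrix arrays. The 4 groups, with 2 biological replicates each, were MT+/+ with saline, MT+/+ with 1 injection of DOX at 15 mg/kg, MT-/- with saline and MT-/- with the same DOX dose. MT+/+ mice carry working copies of the metallothionein genes Mt1 and Mt2, and MT-/- mice are labelled as null for both. Nothing in the labels gives the strain, or says whether hearts were pooled. The median signal of an array was 80.03 to 87.4 units. Within groups the correlation of replicate arrays was 0.976 to 0.984. Mt1 still gave a signal of 4667 to 12850 on the arrays labelled MT-/-, against 3722 to 9285 on the MT+/+ arrays, so the genotype is used only as a label. The cardiac myosin gene Myh6 read between 14702 and 15748 on saline arrays and between 12296 and 13917 on DOX arrays.

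Collagens are extracellular proteins whose chains wind around each other into a rope-like helix. In the heart, types I and III form the fibrils that hold muscle cells in place and carry load, type V starts and sizes those fibrils, type VI forms beaded filaments next to cells, and type IV builds the sheet-like basement membrane around muscle cells and vessels. Fibroblasts make most of the fibrillar collagen, while vessel cells also make type IV. New chains are hydroxylated, folded and checked in the endoplasmic reticulum before secretion, and crosslinked outside the cell.

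The promoters of 4 genes that fell strongly are shown because these genes moved together although they lie at different places in the genome. They are the 250 bases before the annotated start, 5′ to 3′ on the gene's strand, from RefSeq on build GRCm38.p6. They lie at chr6:4505368-4505617 (+ strand), chr1:45311288-45311537 (+ strand), chr1:90843972-90844221 (- strand) and chr4:47207762-47208011 (+ strand). Capitals mark matches on either strand to the CCAAT box (CCAAT), the GC box (GGGCGG), the TATA box (TATAAA) and the core of the SMAD box (CAGAC), the element read by the effectors of TGF-beta.
Col1a2: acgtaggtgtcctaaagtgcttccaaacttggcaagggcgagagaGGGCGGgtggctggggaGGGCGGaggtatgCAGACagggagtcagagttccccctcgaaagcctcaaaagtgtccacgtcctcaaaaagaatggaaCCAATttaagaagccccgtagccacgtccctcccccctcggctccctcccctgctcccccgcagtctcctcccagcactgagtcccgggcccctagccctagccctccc
Col3a1: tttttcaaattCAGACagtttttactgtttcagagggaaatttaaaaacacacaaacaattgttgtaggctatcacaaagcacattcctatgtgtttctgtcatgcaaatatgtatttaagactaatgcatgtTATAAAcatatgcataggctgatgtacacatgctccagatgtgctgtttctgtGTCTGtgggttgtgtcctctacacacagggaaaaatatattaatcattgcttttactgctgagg
Col6a3: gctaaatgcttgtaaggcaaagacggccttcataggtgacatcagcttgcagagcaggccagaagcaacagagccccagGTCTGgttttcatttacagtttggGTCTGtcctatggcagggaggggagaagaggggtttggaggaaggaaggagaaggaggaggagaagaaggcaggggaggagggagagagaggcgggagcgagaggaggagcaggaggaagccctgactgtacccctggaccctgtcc
Col15a1: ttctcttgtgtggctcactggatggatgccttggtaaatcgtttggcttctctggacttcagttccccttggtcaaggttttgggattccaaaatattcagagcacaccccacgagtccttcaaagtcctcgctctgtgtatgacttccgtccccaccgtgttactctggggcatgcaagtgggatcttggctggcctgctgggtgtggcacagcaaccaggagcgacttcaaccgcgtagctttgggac
Col1a2 held 1 CCAAT box, 2 GC boxes and 1 SMAD box core. Col3a1 held 1 TATA box and 2 SMAD box cores, Col6a3 held 2 SMAD box cores, and Col15a1 held 0 matches to any of the 4 motifs in this window.

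Of the 29 expressed collagen genes, 21 had a promoter in the RefSeq table. Among the 14 genes lower after DOX, 11 matched with 12 windows, and Col1a1, Col5a2 and Col14a1 did not match. The SMAD box core was in 7 of these 12 windows, against 4 of 11 windows of the expressed genes without a call and 42.2% of all 32851 windows of this length. The CCAAT box was in 4 of 12, 5 of 11 and 33.8%, the GC box in 7 of 12, 7 of 11 and 32.7%, and the TATA box in 1 of 12, 1 of 11 and 12.4%. The motifs searched do not overlap one another in the printed windows, and these matches are descriptions of letters, not of bound sites.

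After DOX, averaged over both genotypes, 14 of the 29 expressed collagen genes fell and 0 rose. The fibrillar genes Col3a1 (10.4-fold) and Col1a1 (4.98-fold) fell furthest, followed by the type VI genes Col6a2 (3.90-fold) and Col6a3 (3.08-fold) and the basement membrane zone gene Col15a1 (3.27-fold). Falls under 2-fold were those of Col4a1, Col4a2, Col5a1 and Col5a3. Counted by probe set, 24 of 45 were lower (53.3%), where 6.84% of all 24751 tested probe sets were called lower and 7.03% higher. Of the collagen probe sets, 0 were higher even at an unadjusted limma p under 0.05. Among the 39 probe sets that reached the array median on DOX arrays too, 19 fell, with a median log2 change of -0.39, while the median of all 45 was -0.54 and that of all tested probe sets was 0.00. Calls are adjusted p under 0.05 in limma with Benjamini-Hochberg adjustment over all tested probe sets, changes are on the log2(signal + 16) scale, and an error after ± is the SE of the fit (2 arrays a group).

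On 27 of the 45 probe sets every DOX array lay below every saline array, and on 0 above, where 8.83% and 9.61% of all tested probe sets did so. All 6 probe sets that reached the array median on saline arrays only are among the 27. Their passing already favoured this order, so they are no support for it. Actin control probes at the 3′ end read 0.913 to 1.18 times those at the 5′ end on DOX arrays and 1.14 to 1.24 times on saline arrays, a sign of RNA quality. The same ratio for Gapdh was 0.993 to 1.04 and 0.984 to 1.05. The 3′ actin signal itself was lower after DOX, at 4139 to 5289 against 9541 to 10786 on saline arrays. That of Gapdh was 11045 to 11862 against 11732 to 12075. The part of this in the collagen falls was not tested. Since whole hearts were measured, fewer collagen-making cells and less collagen RNA per cell cannot be told apart.

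**Figure D1:**
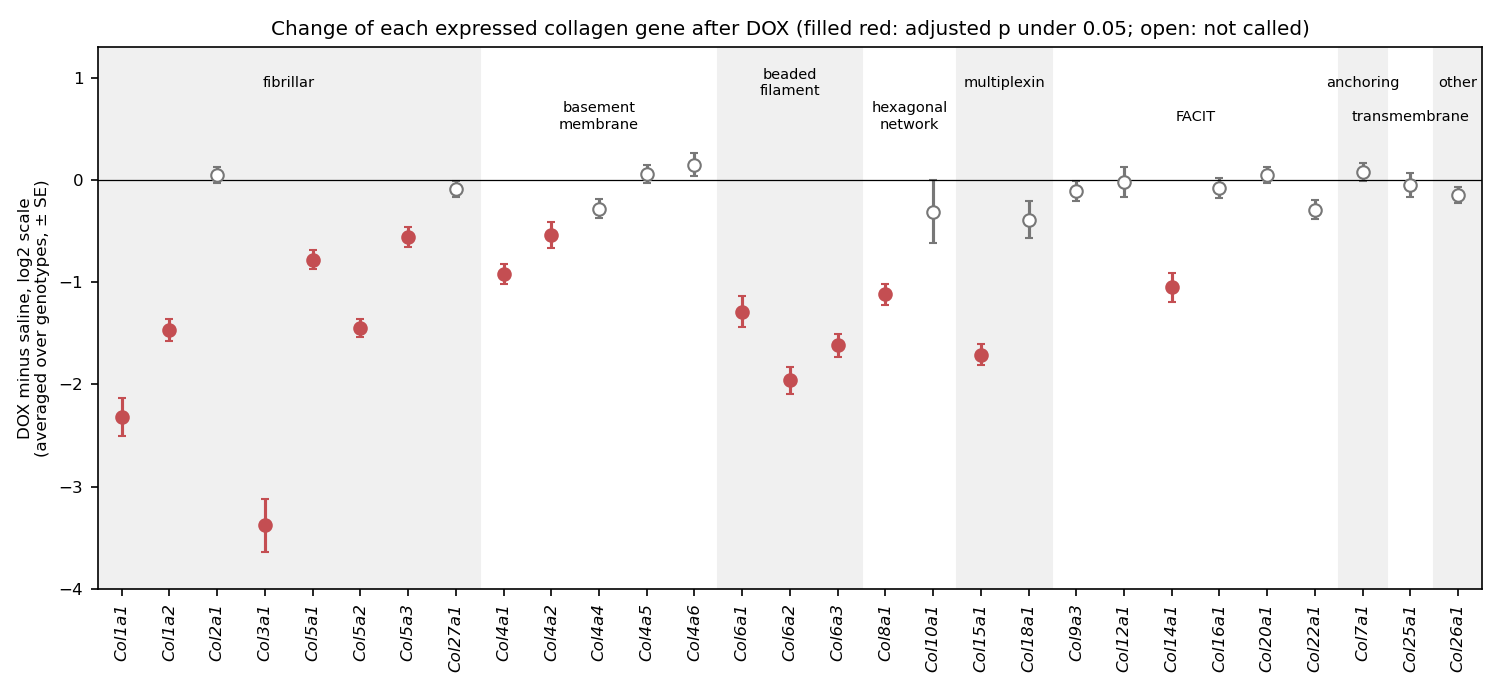
Log2 change after DOX, averaged over genotypes (vertical axis, ± SE), for the probe set that stands for each of the 29 expressed collagen genes, grouped by collagen class (horizontal axis). The 14 filled red points passed the threshold and lie between -3.38 and -0.54, and the 15 open points lie between -0.39 and 0.15.

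Fibrillar collagens fell on 6 of 8 expressed genes, with a class median of -1.12. Col3a1 (probe set 1427883_a_at), the chain of type III collagen, gave signals of 3473 and 3643 in MT+/+ saline, 477 and 428 in MT+/+ DOX, 4136 and 4671 in MT-/- saline, and 492 and 175 in MT-/- DOX hearts. All 4 DOX arrays were far below all 4 saline arrays, and MT-/- DOX 2 was the lowest by a wide margin. Its log2 change was -3.38 ± 0.26 (adjusted p 2.1e-04), or -3.02 without that array. A dimmer probe set had -2.55, but it reached the array median on saline arrays only, so its passing already required a difference.

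Col1a1 (1423669_at), a chain of type I collagen, read 826 and 668 in MT+/+ saline, 177 and 146 in MT+/+ DOX, 855 and 950 in MT-/- saline, and 205 and 100.5 in MT-/- DOX. The treatments did not overlap, and MT-/- DOX 2 was again the lowest array. The change was -2.32 ± 0.19 (adjusted p 2.9e-04). A further probe set, which also passed on saline arrays only, had -1.79. Its partner chain Col1a2 (1450857_a_at) read 884 and 891, 376 and 339, 994 and 1350, and 392 and 341, following that order of groups. Here the DOX arrays of both genotypes lay close together, and the change was -1.47 ± 0.11 (2.77-fold, adjusted p 2.1e-04), with -1.57 on a further probe set.

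Type V collagen, which sits inside type I fibrils and limits their width, fell on each of its chains, by unequal amounts. Col5a2 (1422437_at) read 495 and 544 in MT+/+ saline, 191 and 199 in MT+/+ DOX, 464 and 566 in MT-/- saline, and 169 and 159 in MT-/- DOX. All DOX arrays were below all saline arrays, with a change of -1.45 ± 0.09 (2.74-fold, adjusted p 1.4e-04). Col5a1 (1416740_at) read 403 and 375, 232 and 223, 415 and 462, and 252 and 235, in the same order. Its treatments did not overlap either, and the change was -0.78 ± 0.09 (1.72-fold, adjusted p 0.0012). Of the 2 further Col5a1 probe sets, 1 also fell (-1.04) and the other, close to the array median, was not called (-0.39, adjusted p 0.100, or 0.0051 blocked). Col5a3 (1419703_at) read 386 and 351, 265 and 234, 383 and 386, and 257 and 253, and fell by 0.56 on the log2 scale (SE 0.10, adjusted p 0.0072), with no overlap between treatments.

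The remaining fibrillar genes were not called. Col2a1, the main collagen of cartilage, read 130 and 130, 129 and 131, 105 and 121, and 117 and 124 in the same order of groups. Those values overlap throughout, and its change was 0.05 ± 0.08 (adjusted p 0.733). Col27a1, also known from cartilage, had -0.09 (adjusted p 0.571), and its further probe set 0.06.

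**Figure D2:**
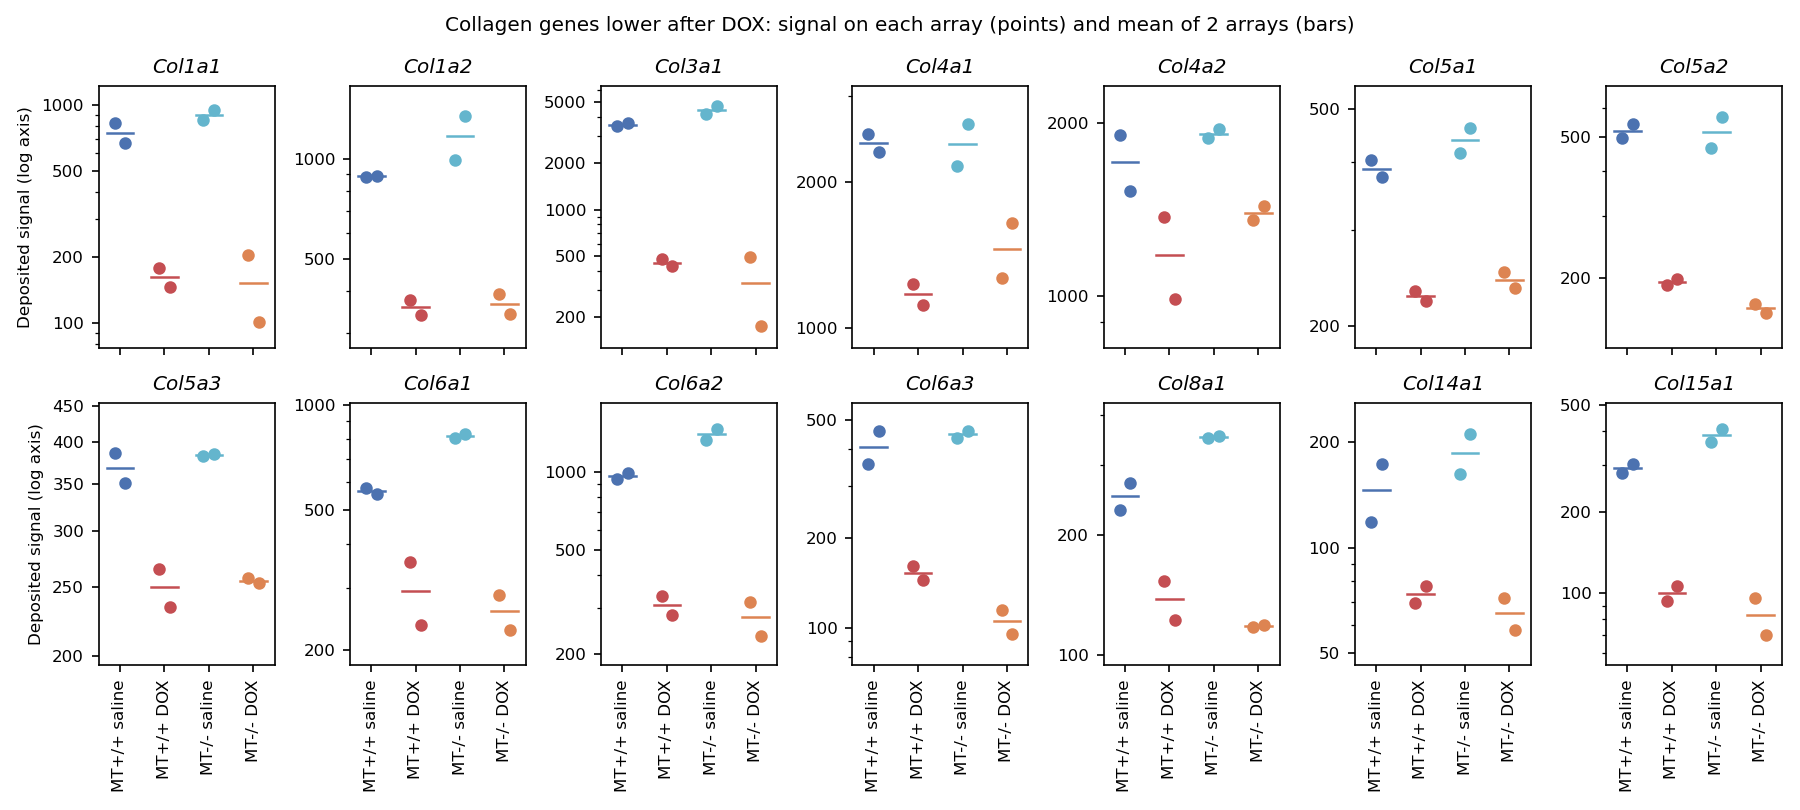
Deposited signal on each of the 8 arrays (points, log axis) by group for the 14 collagen genes called lower after DOX, with the mean of the 2 arrays of a group as a bar. In all 14 panels the 4 DOX arrays lie below the 4 saline arrays, and Col3a1 spans 175 to 4671. Col14a1 reached the array median on saline arrays only.

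Beaded filament collagens fell on each of the 3 expressed genes, with a class median of -1.62. Col6a2 (1452250_a_at) read 937 and 994 in MT+/+ saline, 333 and 282 in MT+/+ DOX, 1321 and 1465 in MT-/- saline, and 318 and 234 in MT-/- DOX. The saline arrays of MT-/- were the highest and the DOX arrays of both genotypes were alike. Its change was -1.96 ± 0.13 (adjusted p 1.4e-04), and -1.83 on a further probe set. Col6a3 (1424131_at), the longest chain of the type VI assembly, read 355 and 460, 161 and 144, 436 and 460, and 115 and 95.6, in the same order. The MT-/- DOX arrays were the lowest, and the change was -1.62 ± 0.11 (adjusted p 1.4e-04). Col6a1 (1448590_at), the remaining chain, lay between 227 and 826 and fell by 1.29 on the log2 scale (SE 0.15, 2.44-fold, adjusted p 0.0011).

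Basement membrane collagens fell on 2 of 5 expressed genes, and less far, with a class median of -0.28. Col4a1 (1452035_at), which with Col4a2 makes the common type IV network of vessel and muscle cell basement membranes, read 2504 and 2304 in MT+/+ saline, 1230 and 1114 in MT+/+ DOX, 2154 and 2621 in MT-/- saline, and 1266 and 1645 in MT-/- DOX. No DOX array reached a saline array, and the MT+/+ DOX arrays were the lowest. The change was -0.92 ± 0.10 (1.89-fold, adjusted p 8.7e-04), with -0.81 on a further probe set. Col4a2 (1424051_at) read 1899 and 1521, 1370 and 986, 1881 and 1946, and 1356 and 1431, in the same order. Its treatments came close but did not overlap, and its change of -0.54 ± 0.13 (1.46-fold, adjusted p 0.027) was called with all arrays present. Leaving out any of 5 arrays ended the call. The adjusted p became 0.090 when MT+/+ saline 1 was dropped and 0.076 for MT+/+ DOX 2. For MT-/- it became 0.095 and 0.066 when saline 1 or saline 2 was dropped, and 0.069 for DOX 2.

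In the RefSeq annotation Col4a1 and Col4a2 lie head to head on opposite strands of chromosome 8, with starts 21 bases apart. Other expressed collagen genes that are next to each other there are Col3a1 with Col5a2 on chromosome 1 and Col6a2 with Col6a1 on chromosome 10, all of which fell, and Col4a6 with Col4a5 on chromosome X, which were not called (0.15 and 0.06). Col4a4, part of the type IV network of the kidney filter, had -0.28 (adjusted p 0.084, or 0.036 in the fit that blocks on replicate number). It had 0.03 on a further probe set.

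Among the other classes, Col15a1 (1448755_at), a multiplexin that links basement membranes to the fibrils beside them, read 279 and 303 in MT+/+ saline, 93.7 and 106 in MT+/+ DOX, 366 and 407 in MT-/- saline, and 96.1 and 69.8 in MT-/- DOX. Saline and DOX arrays were far apart, and the change of -1.71 ± 0.10 (adjusted p 1.4e-04) had the smallest p of the collagen genes. Col18a1, the other multiplexin and the source of endostatin, was not called on its brighter probe set (-0.39, adjusted p 0.197, or 0.0072 blocked) but fell on a further one (-0.60, adjusted p 0.0035). Col8a1 (1455627_at), a network collagen of vessel walls, read 232 and 271, 153 and 122, 351 and 355, and 117 and 119, in the same order. It was highest on the MT-/- saline arrays, and its change was -1.12 ± 0.10 (2.17-fold, adjusted p 4.5e-04).

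Col10a1, the network collagen of growth plate cartilage, read 167 and 66.1, 107 and 54.2, 141 and 59.5, and 83.4 and 70. Replicate 1 was higher than replicate 2 in each group, and the DOX change of -0.31 ± 0.31 was not called (adjusted p 0.598).

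Fibril-associated collagens, which coat the surface of fibrils, fell on 1 of 6 expressed genes, with a class median of -0.09. That gene was Col14a1 (1427168_a_at, -1.05 ± 0.14, 2.07-fold, adjusted p 0.0023), whose signal lay between 58.1 and 212. It reached the array median only on saline arrays, so passing the expression rule already required a difference. A further probe set with the same limit had -0.43. Col22a1, which also passed on saline arrays only, had -0.29 (adjusted p 0.080, or 0.021 blocked). Col12a1, found in tendon and loaded tissue, read 139 and 149, 115 and 155, 102 and 145, and 102 and 156. Its arrays overlapped in full, and its change was -0.02 ± 0.15 (adjusted p 0.966). Col20a1 read 187 and 169, 178 and 183, 165 and 166, and 178 and 174, also overlapping, with a change of 0.05 ± 0.08 (adjusted p 0.760). Col16a1 (-0.08, adjusted p 0.688) and Col9a3 (-0.11, adjusted p 0.536) were not called.

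The transmembrane collagen Col25a1 read 217 and 191, 194 and 168, 176 and 195, and 230 and 163, with no separation of treatments and a change of -0.05 ± 0.12 (adjusted p 0.854). Col7a1, the anchoring fibril collagen of skin (0.08, adjusted p 0.649), and Col26a1 (-0.15, adjusted p 0.299) were not called. Signals of the 15 genes without a call ran from 54.2 to 294, or percentile 31.5 to 83.9 of an array. Those of the 14 that fell ran from 58.1 to 4671, or percentile 36.4 to 99.0, with the low end set by Col14a1 on MT-/- DOX 2. On saline arrays Col14a1 read 118 to 212, and the others of the 14 read at least 232 (Col8a1). The uncalled genes reached at most 261 on saline arrays (Col4a5). On 3 of the 15 every DOX array still lay below every saline array, among them Col22a1, which passed on saline arrays only. Of the 15 genes with several expressed probe sets, 13 gave the same call on each, and Col5a1 and Col18a1 did not. With the block these agreed and Col4a4 did not. For Col1a1, Col3a1, Col5a2 and Col14a1 this agreement involves probe sets that passed the expression rule on saline arrays only, 5 of the 6 such probe sets being called lower, so it is no separate support. At the edge of the expression rule, Col22a1 reached the array median on 3 arrays, while Col11a2, at 66.4 to 85.4 signal units, did so on 1 and was left out.

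Partner chains of 1 protein fell by unequal amounts. The log2 ratio of Col1a1 to Col1a2 was -0.09 and -0.42 in MT+/+ saline, -1.02 and -1.13 in MT+/+ DOX, -0.22 and -0.49 in MT-/- saline, and -0.89 and -1.55 in MT-/- DOX. The ratio was lower on all DOX arrays than on any saline array, by 0.85 log2 units (change -0.85, or -0.53 with the mean of each chain's probe sets, from -0.30 ± 0.18 to -1.15 ± 0.29, SD, n = 4 arrays each, exact permutation p 0.029). The ratio of Col4a1 to Col4a2 was 0.37 and 0.58, -0.17 and 0.16, 0.20 and 0.44, and -0.11 and 0.20, in the same order. Here the lowest saline array and the highest DOX array both print as 0.20, and the change was -0.38 (exact permutation p 0.029).

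The ratio of Col5a1 to Col5a2 rose by 0.67 (from -0.31 ± 0.16 to 0.36 ± 0.18, SD, n = 4, exact permutation p 0.029), and that of Col6a1 to Col6a2 by 0.67 (from -0.76 ± 0.06 to -0.09 ± 0.14, SD, n = 4, exact permutation p 0.029). The probe sets of Col1a1, Col4a1, Col5a2 and Col6a2 thus fell further than those of the partner named with each, and in these 4 pairs the 4 DOX ratios lay on 1 side of the 4 saline ratios. Col6a1 to Col6a3 changed by 0.33 (exact permutation p 0.114) and Col6a2 to Col6a3 by -0.34 (exact permutation p 0.086), which did not pass.

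Over these 6 pairs the Benjamini-Hochberg adjusted values of the 4 smallest exact permutation p were 0.043. Those 2-sided tests exchange the 8 arrays regardless of genotype and replicate number and can give no p below 0.029. In each group the ratio of Col1a1 to Col1a2 was lower, and that of Col4a1 to Col4a2 higher, on replicate 2 than on replicate 1. The arrays are thus not freely exchangeable. All 6 pairs were chosen after their values were seen, so their p only describe the separation. Within genotype the smallest exact permutation p possible is 0.056, which these 4 pairs and Col6a2 with Col6a3 reached, so no pair could pass there. Levels of different probe sets cannot be compared on an array, so these values say only that the probe sets of both chains changed unequally.

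**Figure D3:**
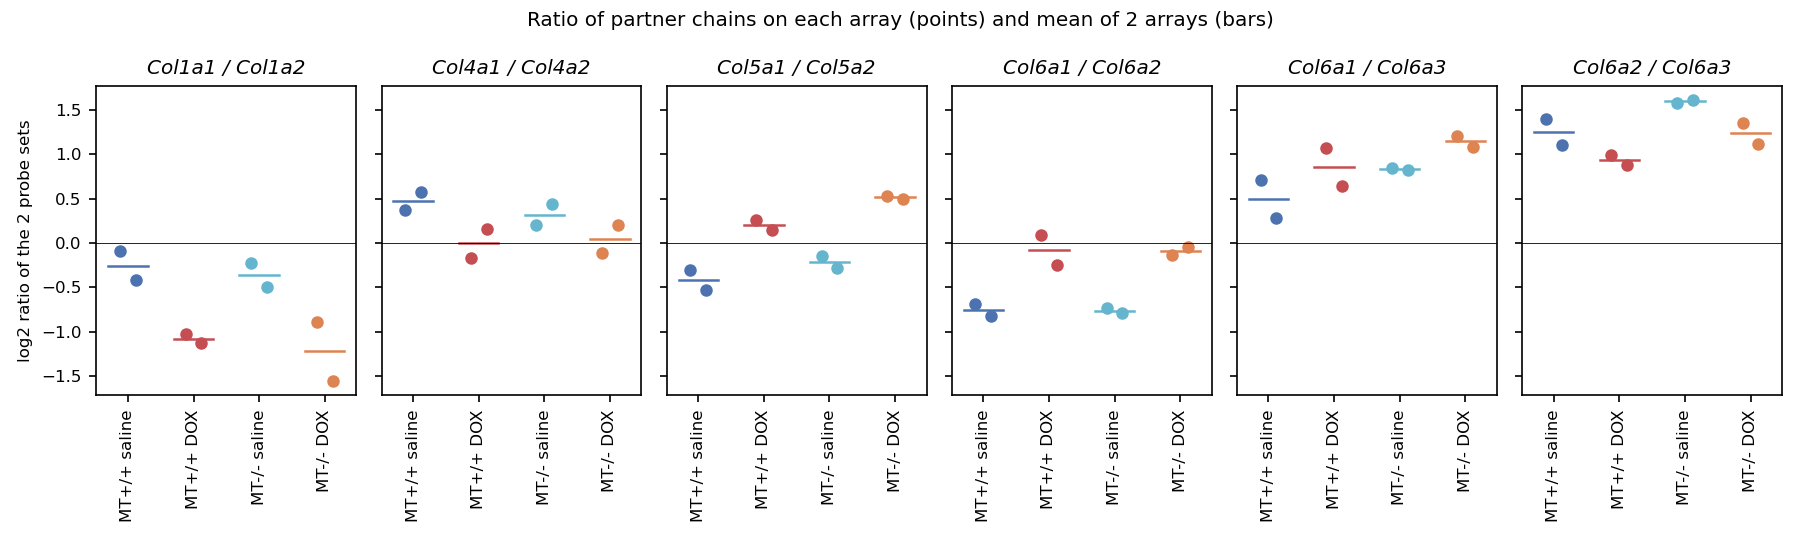
Log2 ratio of the probe sets of partner collagen chains (vertical axis) on each of the 8 arrays (points) by group, with group means as bars, for 6 chain pairs. For Col1a1 with Col1a2, Col5a1 with Col5a2 and Col6a1 with Col6a2 the DOX arrays lie clear of the saline arrays, while Col6a1 with Col6a3 and Col6a2 with Col6a3 overlap.

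Within MT+/+ hearts 11 of 29 collagen genes fell and 0 rose after DOX, and within MT-/- hearts 12 fell and 0 rose. By probe set 19 of 45 fell in MT+/+, where 1.26% of all tested probe sets were called lower and 1.22% higher. In MT-/- 21 of 45 fell, where these shares were 3.38% and 2.83%. Both counts include the dimmer probe sets of Col1a1, Col3a1 and Col5a2 that reached the array median on saline arrays only. The MT-/- count also includes both expressed Col14a1 probe sets, which have the same limit. Passing already required a difference for these, so the counts are not compared between genotypes. Col3a1 changed by -2.95 ± 0.37 in MT+/+ (7.72-fold at adjusted p 0.0081). In MT-/- its change was -3.81 ± 0.37 (14-fold at adjusted p 0.0013), and -3.09 without MT-/- DOX 2. Col1a1 changed by -2.18 (adjusted p 0.0081) and -2.45 (adjusted p 0.0023), Col6a2 by -1.69 (adjusted p 0.0058) and -2.23 (adjusted p 8.9e-04), and Col15a1 by -1.45 (adjusted p 0.0054) and -1.96 (adjusted p 7.5e-04).

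Of the 14 genes that fell on average, 11 passed in both genotypes and Col14a1 passed in MT-/- only (-1.28, adjusted p 0.0091) with -0.83 in MT+/+ (adjusted p 0.070, or 0.015 blocked). Col4a2 had -0.62 (adjusted p 0.130, or 0.016 blocked) and -0.47 (0.199, or 0.037 blocked). Col5a3 had -0.59 (adjusted p 0.065, or 0.0091 blocked) and -0.53 (0.058, or 0.0096 blocked). The block further brought Col18a1 past the threshold in MT+/+ (0.021) and Col22a1 in MT-/- (0.050, just under the threshold).

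The MT+/+ calls rested on few arrays: against 19 probe sets with all arrays, the number called was 9 without MT+/+ saline 1, 6 without MT+/+ saline 2 and 3 without MT+/+ DOX 2. By gene the numbers called were 6, 4 and 2, the 6 including Col14a1, which was not among the 11. In MT-/- the number of probe sets called lay between 15 and 21 with any 1 array left out. Each of these fits left 1 array in a group, which weakens any call. The Col3a1 change in MT+/+ was -2.94 without saline 1 and -2.95 without saline 2 of that genotype. It was -3.05 without DOX 1 and -2.85 without DOX 2, against -2.95 with all arrays. That of Col6a1 moved more, from -1.01 to -0.71 without MT+/+ DOX 2. Both DOX comparisons averaged into the result above share its arrays, so they are not separate support for it.

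**Figure D4:**
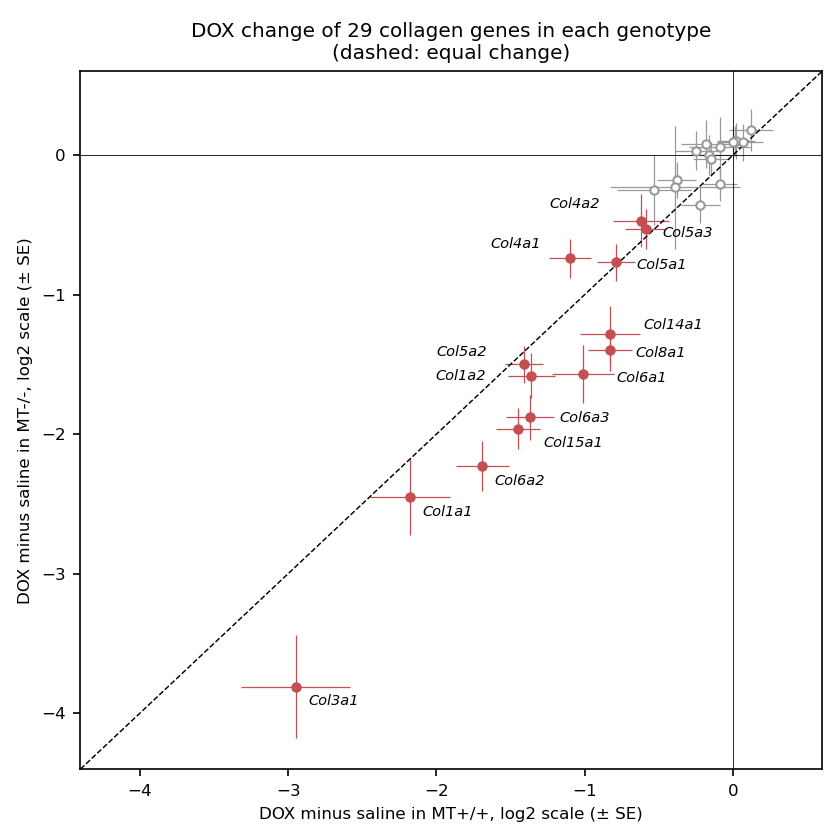
Log2 change after DOX in MT+/+ (horizontal axis) and in MT-/- (vertical axis) for the 29 expressed collagen genes, each with its SE from 2 arrays a group; filled red points are the 14 genes called on average. Of these 14, 10 lie below the dashed line of equal change and 4 above it, and 0 differed by the interaction test.

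The DOX change was larger in MT-/- for 10 of those 14 genes and larger in MT+/+ for Col4a1, Col4a2, Col5a1 and Col5a3. The difference itself (MT-/- minus MT+/+) ran from -0.86 for Col3a1 to 0.36 for Col4a1, and limma called 0 of 45 collagen probe sets, as it called 0 of all 24751. At an unadjusted p under 0.05 there were 5 collagen probe sets, against 2.32% of all. Among the probe sets that stand for genes, the 3 with the smallest p were those of Col8a1 (-0.57 ± 0.21), Col15a1 (-0.51 ± 0.21) and Col6a3 (-0.50 ± 0.22), each at adjusted p 1.

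Between genotypes limma called 0 collagen probe sets under saline, 0 under DOX and 0 averaged over treatments, where 0.186%, 0.283% and 0.905% of all tested probe sets were called. Unadjusted p was under 0.05 for 6, 3 and 2 of the 45, against 8.62%, 7.39% and 13.0% of all. Under saline, on the probe set that stands for each gene, the 3 genes with the smallest p were Col8a1 (0.40 ± 0.15, adjusted p 0.525), Col6a2 (0.39 ± 0.18, adjusted p 0.591) and Col15a1 (0.31 ± 0.15, adjusted p 0.612). Each was higher on the MT-/- arrays, as were all 6 probe sets under 0.05. Further probe sets of Col3a1 (0.90, adjusted p 0.316) and Col5a2 (0.55, adjusted p 0.390) had smaller p, but both passed on saline arrays only. The probe sets that stand for these genes had 0.28 and -0.14. Under DOX the 3 genes, ranked in the same way, were Col6a3 (-0.46 ± 0.16, adjusted p 0.501), Col9a3 (0.31 ± 0.14, adjusted p 0.676) and Col4a1 (0.26 ± 0.14, adjusted p 0.768). Col9a3, a cartilage collagen, read 103 and 79.5 in MT+/+ saline, 72.1 and 71.2 in MT+/+ DOX, 95.4 and 81.4 in MT-/- saline, and 93.8 and 86.5 in MT-/- DOX, near the array median throughout. Averaged over treatments the 3 genes were Col5a2 (-0.18, adjusted p 0.449), Col6a3 (-0.21, adjusted p 0.482) and Col9a3 (0.17, adjusted p 0.514). The further Col5a2 probe set, which passed on saline arrays only, went the other way (0.37, adjusted p 0.201). Its unadjusted limma p of 0.008 was the smallest of the 45, so the direction for Col5a2 is not settled. With all arrays Col3a1 had -0.58 under DOX (adjusted p 0.826). It was called lower in MT-/- only without MT-/- DOX 1, which read 492. That left MT-/- DOX 2, at 175, as the sole array of its group. The spread between these replicates was then missing from the fit, so that call shows no genotype difference.

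The genes that make, fold and process collagen moved partly along with it. Of 26 tested, 10 fell and 3 rose after DOX (median -0.23), or 12 and 4 with the block. For this and the lists that follow, the shares over all tested probe sets were 6.84% lower and 7.03% higher, or 13.2% and 13.8% with the block. The 3 of 26 that rose, or 4 with the block, lie near these shares. The lists that follow are shorter, so that the same count is a larger share there. Serpinh1, the chaperone dedicated to collagen, fell by 1.91 on the log2 scale (3.75-fold, adjusted p 7.2e-04), from 2481 to 2744 on saline arrays to 488 to 971 on DOX arrays. Pcolce, which speeds removal of the C-terminal propeptide, fell as well (-1.57, adjusted p 4.1e-04), as did Sparc, a collagen chaperone outside the cell (-1.29, adjusted p 0.0031). The crosslinking enzyme Lox rose (0.95, adjusted p 6.9e-04), with 0.42 in MT+/+ (adjusted p 0.161) and 1.48 in MT-/- (adjusted p 0.0012). Its relative Loxl1 fell (-1.30, adjusted p 0.0039), from 600 to 943 on saline arrays to 217 to 366 on DOX arrays. On saline arrays Lox read 129 to 151. Loxl3 and Loxl4 were not called.

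Among proteins that organise fibrils, 8 of 14 fell and 1 rose (median -0.52), or 8 and 2 with the block. The matricellular protein Postn fell 4.22-fold (-2.08, adjusted p 3.3e-04), and the small proteoglycans Bgn (-1.13, adjusted p 1.9e-04) and Ogn (-0.96, adjusted p 3.3e-04) and the fibril binder Dpt (-1.40, adjusted p 1.9e-04) fell too. Of 8 collagen receptors 3 fell and 0 rose (median -0.19): the integrin chain Itga1 (-1.09, adjusted p 2.9e-04), the uptake receptor Mrc2 (-0.44, adjusted p 0.016) and the leukocyte receptor Lair1 (-0.33, adjusted p 0.043).

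Genes of collagen breakdown moved both ways, 3 of 10 down and 3 up (median -0.14), or 4 and 3 with the block. The protease inhibitor Timp3 rose (1.2, adjusted p 4.4e-04) and its relative Timp1 fell (-0.37, adjusted p 0.020). The neutrophil collagenase Mmp8 (0.67, adjusted p 0.0076) reached the array median on the MT-/- DOX arrays only, at 126 and 109, and had 0.25 in MT+/+ (adjusted p 0.513). The fibroblast protease Fap (-0.70, adjusted p 0.020) did so on saline arrays only. Passing thus already required a difference for both. Of 16 genes of TGF-beta signalling, the pathway best known for switching collagen genes on, 2 rose and 2 fell (median -0.04), or 5 lower and 4 higher with the block, near the shares over all tested probe sets without it. Its target Ccn2 rose 6.25-fold (2.64, adjusted p 0.0030), from 375 to 668 on saline arrays to 1644 to 2549 on 3 DOX arrays and 11151 on MT-/- DOX 2, the array with the lowest Col3a1. The rise was called in MT-/- (3.24, adjusted p 0.011) and not in MT+/+ (2.05, adjusted p 0.088). The ligand gene Tgfb3 (-0.46, adjusted p 0.0072) and the binding protein Ltbp4 (-1.04, adjusted p 0.0041) fell while the co-receptor Tgfbr3 rose (0.45, adjusted p 0.021).

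Markers of collagen-making cells moved with the collagens in part. Of 16 fibroblast markers other than collagens, 8 fell and 0 rose (median -0.49), or 10 and 1 with the block. Among those that fell were Serpinf1 (-1.29), Dpt, Pi16 (-1.63) and Mfap4 (-0.91), all at adjusted p of 3.7e-04 or less. Others did not: Dcn had 0.20 (adjusted p 0.214, or 0.024 blocked, called higher), Scara5 0.21, Pdgfra 0.03 and Gsn -0.16. The summed signal of the list went from 22306 to 22430 under saline to 18490 to 20352 under DOX in MT+/+, and from 23774 to 28834 to 20682 to 21297 in MT-/-. Dcn and Gsn made up 54.2% to 73.9% of it. Without both, a choice made after seeing the values, it went from 7463 to 9269 to 5317 to 5480 in MT+/+ and from 9521 to 13216 to 5445 to 5751 in MT-/-. Such sums follow the brightest probe sets. No fibroblast marker was near 0, the lowest lying at percentile 50.6 of its array. Dpt, Ddr2, Dcn and Lum stand in a collagen-related list as well.

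Smooth muscle and pericyte markers fell on 2 of 10 and rose on 0, or 3 and 0 with the block (sums 13723 to 17926 under saline and 10545 to 13145 under DOX). Endothelial markers fell on 3 of 12 and rose on 0, or 4 and 2 with the block (7465 to 9554 and 6198 to 8044); the 2 were Vwf (0.51, adjusted p 0.057, or 0.0070 blocked) and Pecam1 (0.26, adjusted p 0.290, or 0.038 blocked). Schwann cell markers fell on 0 of 4 (1 with the block, 1098 to 1237 and 933 to 1084). Macrophage markers fell on 10 of 12 and rose on 1 with either fit (9725 to 12125 and 5487 to 7431). Red cell markers fell on 2 of 5, or 3 with the block (1074 to 1809 and 341 to 401), and both, Alas2 and Hbb-b2, reached the array median on saline arrays only. Cardiomyocyte markers fell on 4 of 12 and rose on 0, or 4 and 3 with the block (130601 to 135532 and 124180 to 127445). Among the 4 that fell was Myh6 (-0.24, adjusted p 0.0063). The part of any of these cell types in the collagen falls was not tested.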

How the data were processed

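Heart RNA was profiled on 8 1-colour Affymetrix arrays, from 2 µg of total RNA each. The deposited values are 1 linear intensity per probe set, made by the authors with GCOS 1.4, per the submitters' processing notes; neither the signal algorithm nor its scaling target is stated there. Of 45101 rows, 64 controls were left out. Names came from the platform annotation table (all 82 collagen probe sets carried the symbol of their Entrez number in RefSeq, GRCm38.p6).

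Intensities were quantile-normalized and tested as log2(intensity + 16), which understates changes of dim probe sets, on the 24751 probe sets that reached the array median on 2 or more arrays. The fit used limma 3.58.1 in R 4.3.3 (4 group means, eBayes with trend, 4 residual degrees of freedom) for 7 comparisons, two-sided, with Benjamini-Hochberg adjustment and a threshold of 0.05. It was run on simulated data with 200 changed probe sets. Of log2 changes of 0.5 it recovered 0, both averaged and within a genotype. Of changes of 1 it recovered 77.5% averaged over genotypes and 52% within either genotype. A gene without a call may thus still have changed. The simulation had fewer changed probe sets than were called in the data, so its shares need not hold there. Groups have 2 arrays, a number that limits precision, and an exact test of 2 against 2 cannot go below 0.333. For each gene the expressed probe set with the highest mean stands for it. The main fit held no replicate term, and values and calls come from it unless given as blocked. A further fit, the replicate block, took same-numbered arrays as belonging together, since their deviations correlated at 0.36 to 0.542 between all groups. The labels state no shared litter or day. Averaged over genotypes, 17 collagen genes were called lower with the block, against 14 in the main fit. Blocked values are given where they change the averaged call of a collagen probe set or a call of the probe set that stands for a gene within a genotype, and as counts for each other list.

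Values per array are given for the 8 collagen genes with the smallest p after DOX, the 3 called genes with the smallest change, the 4 with the largest p and the 3 with the smallest p in each genotype comparison and in the interaction, and up to 4 genes of each other list were named by p; those named beyond this, Col10a1 among them, were chosen after their values were seen. Members, lists and tests were chosen with earlier results of these data known, and the chain ratios after seeing the values. Alternatives were other scalings, pseudocounts of 1 and 64, no filter or a filter on 6 arrays, eBayes without trend or robust, only the compared groups, the replicate block, the mean of probe sets and leaving out each array.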

Additional observations from a re-analysis of the deposited data

How the results depend on the processing

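The averaged DOX result was stable in number: 22 to 24 collagen probe sets and 13 or 14 genes were called lower with any 1 array left out, 19 probe sets with the filter on 6 arrays and 28 with the replicate block. Of its 14 genes, 13 kept the call under every alternative that tested them, Col4a2 being the exception; Col14a1 was not tested under the filter on 6 arrays. In MT+/+ the count of 19 probe sets (11 genes) ranged from 3 to 18 (2 to 11 genes) with 1 array left out, and 2 of the 11 genes kept their call throughout; the cause was not tested. Col6a1 was lost there under deposited scaling (adjusted p 0.053), median centring (0.065), no filter (0.050) and only the compared groups (0.064). In MT-/- the count ranged from 15 to 21, and 9 of 12 genes kept their call. The MT-/- median of -0.53 was -0.45 with a pseudocount of 64, which shrinks changes of dim probe sets, and -0.57 to -0.48 with 1 array left out. Under DOX the genotype count stayed at 0 except without MT-/- DOX 1, where Col3a1 was called with MT-/- DOX 2 as the sole array of its group. With the mean of probe sets, the genotype-averaged value of Col5a2 changed sign to 0.10 (adjusted p 0.619), and the chain ratio changes were -0.53 for Col1a1 with Col1a2, -0.32 for Col4a1 with Col4a2, 0.45 for Col5a1 with Col5a2 and 0.61 for Col6a1 with Col6a2. Beyond the calls named in the text, the replicate block changed no other call of a collagen gene. What signal strength limits among the 15 uncalled genes was not tested.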

Other observations

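Collagen probe sets under the expression rule were read from the fit with no filter. Of these 37, 2 were lower after DOX and 0 higher (median -0.04), where 0.813% of all 20286 probe sets under the rule were lower. They were a dim Col8a1 probe set (1418441_at, -0.39 ± 0.07, adjusted p 0.010), which went the same way as the 2 brighter ones, and a Col4a3 probe set (1450224_at, -0.34 ± 0.07, adjusted p 0.021). Col4a3 pairs with Col4a4 in the type IV network of the kidney filter, and its gene lies next to Col4a4 on chromosome 1.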
